A study of Mus musculus with 6 samples.

Results

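Heat shock genes were described in fibroblasts sorted from the skin of mouse ears, as a control for differences in stress during tissue dissociation. Of the 10 genes chosen (Hspa1a, Hspa1b, Hspa5, Hspa8, Hspb1, Hsp90aa1, Hsp90ab1, Hsph1, Dnajb1 and Hsf1), 8 had a probe set that the platform annotation names for that gene alone. They had 22 such probe sets of 45037 on the array. Hsp90ab1 and Hsf1 had none in the annotation used here, and no probe set named a chosen gene together with another gene. The rule uses no measured value, but the genes were chosen with earlier results of these data known.

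The arrays compared 3 samples of normal dermal fibroblasts (NDF) with 3 of cancer-associated fibroblasts (CAF). NDF came from normal ears of non-transgenic FVB/n mice. CAF came from K14-HPV16 mice with visible dysplasia of the ears, in which the keratin 14 promoter drives human papillomavirus type 16 genes in basal keratinocytes and not in the fibroblasts themselves. All mice were male and 4 months old, no other treatment is named, and both groups were dissociated to single cells and sorted for the fibroblast surface receptor PDGFRα. The protocol names 15 mice per genotype and does not say whether each sample was a separate pool, so p-values cover the spread among these samples alone, which may in part be technical. In such bulk samples, fewer cells of a type and less RNA per cell cannot be told apart.

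Heat shock proteins are chaperones that bind unfolded proteins. Heat shock factor 1, the product of Hsf1, switches on inducible members such as Hspa1a and Hspa1b when proteins unfold, through inverted repeats of the bases GAA in their promoters. Constitutive members such as Hspa8 serve protein folding in unstressed cells. Enzymatic dissociation of tissue can induce heat shock genes together with immediate-early genes, which is why they are read as a control in sorted cells. All arrays here held dissociated cells, so stress that both groups shared does not show in a difference between them.

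The promoters were searched for a single inverted pair of GAA units, which by itself does not show that a gene carries a heat shock element. Those of Hspa1a and Hspa1b were also compared. RefSeq promoter sequences of GRCm38.p6 were matched by symbol for 6 of the 10 genes (Hspa1a, Hspa1b, Hspa5, Hspb1, Hsph1 and Dnajb1), and the 250 bases before the transcript start were searched. The inverted pairs GAANNTTC and TTCNNGAA, which read the same on both strands and can overlap, were found in 4 of the 6 genes (Hspa1a, Hspa1b, Hspb1 and Hsph1). They were also found in 12.8% of all 32851 promoter windows of this length, so a match is common by itself. The endoplasmic reticulum stress element, CCAAT and CCACG with 9 bases between them, was searched on both strands. It was found in Hspa5 and in 0.113% of all windows. The windows printed are chr17:34972157-34972406 for Hspa1a, chr17:34959239-34959488 for Hspa1b and chr5:149636337-149636586 for Hsph1, all on the minus strand, and chr2:34771840-34772089 for Hspa5 on the plus strand. Each is written 5′ to 3′ along its gene, with the matched element in capitals.
Hspa1a: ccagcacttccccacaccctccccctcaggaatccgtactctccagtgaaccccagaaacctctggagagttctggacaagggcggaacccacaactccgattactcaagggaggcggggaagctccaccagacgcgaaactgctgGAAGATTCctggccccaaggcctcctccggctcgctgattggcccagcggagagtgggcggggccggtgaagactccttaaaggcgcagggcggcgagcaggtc
Hspa1b: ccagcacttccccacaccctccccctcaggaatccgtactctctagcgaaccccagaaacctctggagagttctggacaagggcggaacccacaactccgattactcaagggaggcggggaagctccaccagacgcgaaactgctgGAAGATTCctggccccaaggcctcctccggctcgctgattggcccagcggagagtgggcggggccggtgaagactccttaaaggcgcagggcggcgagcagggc
Hsph1: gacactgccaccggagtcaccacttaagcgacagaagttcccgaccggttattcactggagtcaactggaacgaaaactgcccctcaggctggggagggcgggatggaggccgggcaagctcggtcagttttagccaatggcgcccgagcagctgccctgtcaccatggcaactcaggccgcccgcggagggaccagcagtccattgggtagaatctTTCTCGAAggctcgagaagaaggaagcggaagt
Hspa5: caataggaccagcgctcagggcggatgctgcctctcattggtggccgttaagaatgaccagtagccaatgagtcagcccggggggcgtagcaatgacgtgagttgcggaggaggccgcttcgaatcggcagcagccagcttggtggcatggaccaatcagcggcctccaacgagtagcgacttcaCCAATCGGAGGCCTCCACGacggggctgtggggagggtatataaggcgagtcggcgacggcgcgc

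The Hspa1a and Hspa1b windows shared 247 of 250 bases, and the inverted pair began 104 bases before the start in both. The 3 substitutions from Hspa1a to Hspa1b were C44T, T47C and T249G, counted from 1 at the 5′ end of the window. Transcript sequences of this gene pair were not compared here. The signal of a probe set named for one may hold RNA of the other, which was not tested.

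No heat shock probe set differed between CAF and NDF past the threshold. By limma across all 45037 probe sets with Benjamini-Hochberg adjustment, 0 of the 22 had an adjusted p under 0.05, where 0.162% of all probe sets did, 0.144% higher and 0.0178% lower in CAF. At an unadjusted p under 0.05 there was 1 of 22, higher in CAF, where 7% of all probe sets passed, 3.82% higher and 3.18% lower. The array groups did not overlap for 4 of the 22 probe sets, with CAF above NDF in each, where 12.8% of all probe sets did not overlap, 5.69% with CAF above and 7.14% with CAF below. The differences (CAF minus NDF, log2 units) ran from -0.37 to 1.74 with a median of 0.10, against a median of -0.02 over all probe sets. Of the 22, 14 were positive and 8 negative, and 19 were smaller than 0.5 in size. Of all 45037 probe sets, 20912 were positive and 24125 negative, and 36966 were smaller than 0.5 in size.

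The precision was sufficient to bound most differences. The 95% interval from limma lay within 1 log2 unit of 0, a factor of 2, for 18 of the 22 probe sets, where this held for 64.3% of all probe sets. For the brightest probe set of each gene (the highest mean over the 6 arrays) it held for all 8. Of these, the Hspa1a probe set is dim, so its interval bounds little. With a mean at or above the median it held for 16 of 20, against 49.2% of all such probe sets. The 4 exceptions among the 22 were a pair of Hspa1b probe sets, 1 of Hspa8 and 1 of Hsph1.

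**Figure D1:**
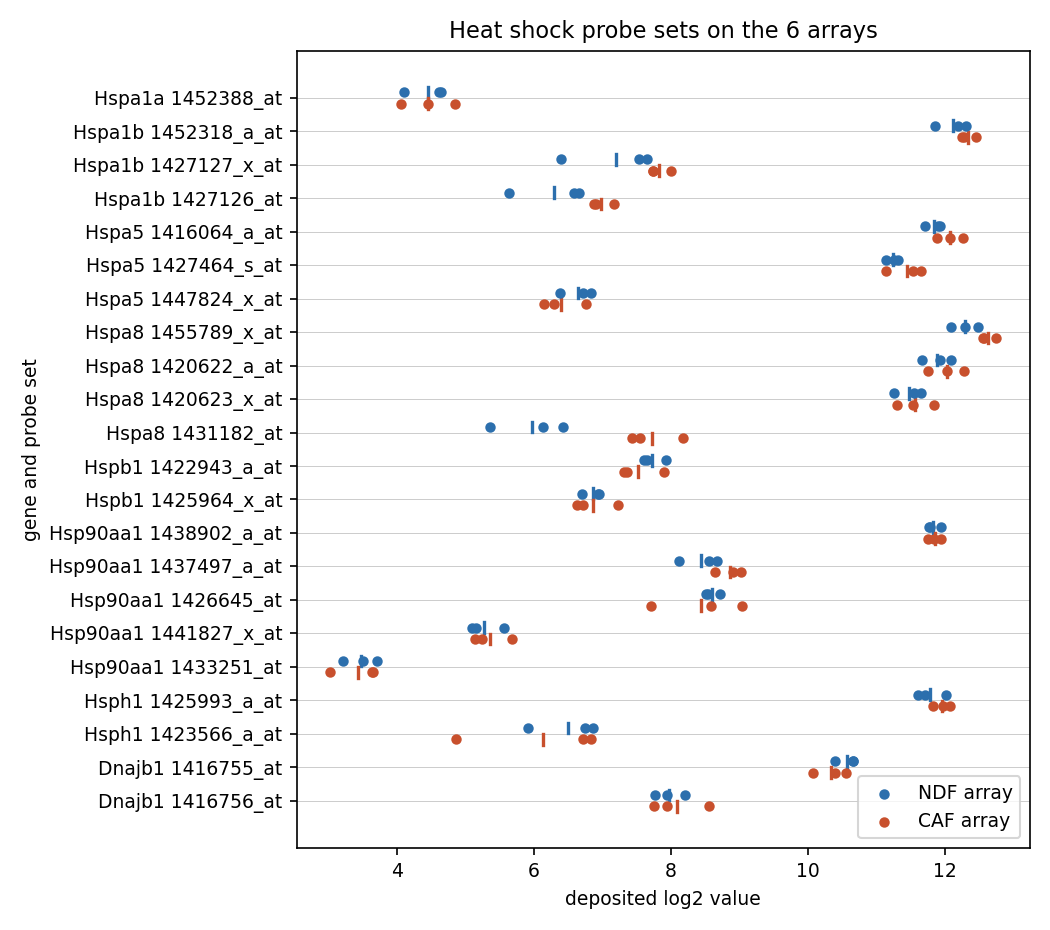
Deposited log2 value (horizontal axis) of the 22 heat shock probe sets (vertical axis) on the 3 NDF and 3 CAF arrays. Each point is 1 array and each short line a group mean; the groups are apart only for a pair of Hspa1b probe sets and a pair of Hspa8 probe sets. Levels of different probe sets cannot be compared with each other.

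Hspa1b encodes the main stress-inducible cytosolic HSP70. Its brightest probe set, 1452318_a_at, was at 11.85, 12.31 and 12.20 on NDF arrays 1 to 3 and at 12.28, 12.26 and 12.46 on CAF arrays 1 to 3 (log2). The difference was 0.22 ± 0.19 (SE, n = 3 per group), with a 95% interval of -0.24 to 0.68 (limma adjusted p = 0.957). The groups overlapped, and the array of NDF replicate 1 was the lowest. Without it the difference was 0.085.

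Both other Hspa1b probe sets, annotated to the same sequence record, gave a wider gap. Probe set 1427127_x_at read 6.39, 7.66 and 7.53 in NDF and 7.999, 7.75 and 7.74 in CAF, a difference of 0.64 ± 0.35 (limma adjusted p = 0.856). Probe set 1427126_at read 5.64, 6.66 and 6.58 in NDF and 7.17, 6.88 and 6.90 in CAF, a difference of 0.69 ± 0.31 (limma adjusted p = 0.752). In each the CAF arrays lay above the NDF arrays, but the gap between NDF replicate 1 and the other NDF arrays was the widest step. Without NDF replicate 1 the differences were 0.24 and 0.36. The range within NDF, 1.26 and 1.02 log2 units, exceeded the mean difference between the groups.

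Hspa1a, the neighbouring inducible HSP70 gene, had a single, dim probe set, 1452388_at. It read 4.10, 4.65 and 4.61 in NDF and 4.84, 4.05 and 4.44 in CAF. Its mean of 4.45 lay below the median of all probe set means (4.84). The groups overlapped fully, with a difference of -0.01 ± 0.27 and a 95% interval of -0.65 to 0.64. At this signal RMA compresses differences, so a change of low transcript levels could be missed.

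Hsph1 encodes HSP110, which exchanges nucleotides on HSP70 and is itself heat inducible. Its brighter probe set, 1425993_a_at, was at 12.02, 11.61 and 11.71 in NDF and 11.82, 12.08 and 11.98 in CAF, and the groups overlapped. The difference was 0.18 ± 0.19 (limma adjusted p = 0.970). The dimmer one, 1423566_a_at, was at 5.91, 6.74 and 6.86 in NDF and 6.83, 6.72 and 4.86 in CAF. The array of CAF replicate 3 was far below the other arrays, and the difference of -0.37 ± 0.57 became 0.27 without it.

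Dnajb1 encodes the inducible HSP40 that delivers substrates to HSP70. Probe set 1416755_at was at 10.40, 10.66 and 10.65 in NDF and 10.39, 10.08 and 10.56 in CAF. It differed by -0.23 ± 0.20, with a 95% interval of -0.70 to 0.25, and the groups overlapped. Probe set 1416756_at, annotated to the same sequence record, differed by 0.11 ± 0.26, so the pair had opposite signs within their errors.

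Hspb1 encodes the small heat shock protein HSP25, which holds unfolded proteins and binds actin. Probe set 1422943_a_at was at 7.93, 7.61 and 7.65 in NDF and 7.90, 7.36 and 7.31 in CAF, with overlapping groups. The difference was -0.21 ± 0.23 (95% interval -0.75 to 0.33). The other probe set, 1425964_x_at, had a mean of 6.86 in both groups.

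Hsp90aa1 encodes the inducible form of cytosolic HSP90 and had 5 probe sets, with differences from -0.15 to 0.42. The brightest, 1438902_a_at, was at 11.94, 11.77 and 11.79 in NDF and 11.85, 11.76 and 11.95 in CAF. The groups overlapped, and the difference of 0.02 ± 0.17 had a 95% interval of -0.38 to 0.41. Probe set 1437497_a_at showed the largest difference of the 5, from 8.45 ± 0.29 to 8.86 ± 0.19 (SD, n = 3; limma adjusted p = 0.835). On probe set 1426645_at CAF replicate 3 was again low, at 7.71 against 9.04 and 8.59 on the other CAF arrays. Its difference was -0.15 with that array and 0.22 without it. Probe set 1433251_at stayed between 3.02 and 3.71, near the lower quartile of all values (3.56), and carries little information.

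**Figure D2:**
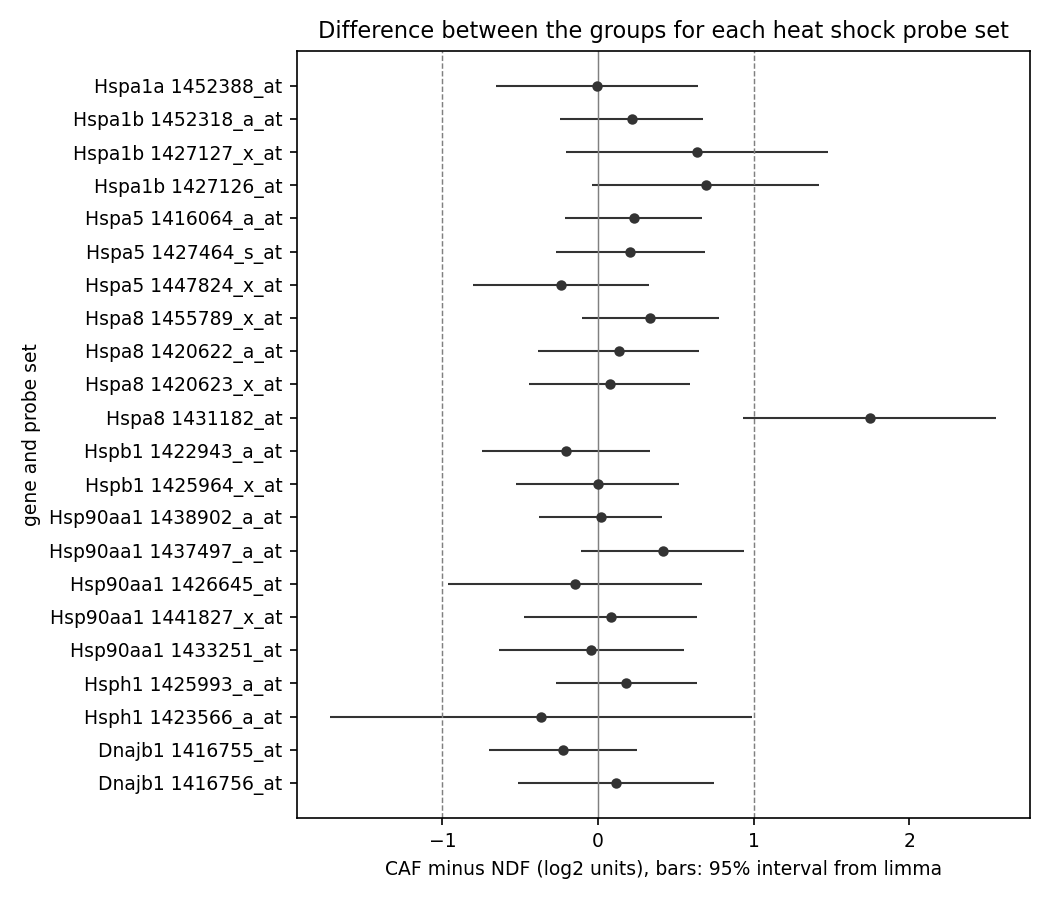
Difference between the group means (CAF minus NDF, log2 units, horizontal axis) for each of the 22 heat shock probe sets, with bars for the 95% interval from limma (3 arrays per group). Dashed lines mark 1 log2 unit; 18 intervals lie between them, and the interval of Hspa8 1431182_at is the only 1 that leaves out 0.

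Hspa8 encodes HSC70, the constitutive cytosolic HSP70 that also uncoats clathrin vesicles. Its brightest probe set, 1455789_x_at, was at 12.49, 12.09 and 12.30 in NDF and 12.76, 12.58 and 12.56 in CAF. All CAF arrays lay above all NDF arrays, by a mean of 0.34 ± 0.18 (95% interval -0.10 to 0.78, limma adjusted p = 0.851). Both probe sets annotated to another Hspa8 sequence record, 1420622_a_at and 1420623_x_at, overlapped between groups and differed by 0.13 ± 0.22 and 0.08 ± 0.22.

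The remaining Hspa8 probe set, 1431182_at, stood apart from these. It was at 6.13, 5.36 and 6.43 in NDF and at 7.55, 8.17 and 7.43 in CAF, with no overlap. The difference was 1.74 ± 0.34, or 3.35-fold on this scale, with a 95% interval of 0.93 to 2.56. It missed the threshold over all probe sets (limma adjusted p = 0.188) and was the single heat shock probe set with an unadjusted p under 0.05 (0.0016). The difference was 1.44 to 1.97 when each array was left out in turn, so no array decided its size. It is annotated to another sequence record than the other Hspa8 probe sets, whose intervals all end below its lower bound. The target sequences themselves were not compared. The 4 Hspa8 probe sets averaged 0.57 ± 0.21 (limma adjusted p = 0.455 over genes).

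Hspa5 encodes BiP, the HSP70 of the endoplasmic reticulum, which is induced mainly by unfolded secretory proteins. Probe set 1416064_a_at was at 11.90, 11.94 and 11.72 in NDF and at 12.27, 12.09 and 11.88 in CAF. CAF replicate 3 fell among the NDF arrays, and the difference was 0.23 ± 0.18 (95% interval -0.21 to 0.67). The other Hspa5 probe sets differed by 0.21 ± 0.20 and -0.24 ± 0.24.

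Single arrays stood high or low in both groups. The array of CAF replicate 1 was the highest of the 6 for 11 of the 22 probe sets and the lowest for 0. Among all probe sets at or above the median mean it also had the highest mean, 7.62 against 7.37 to 7.57. Over all probe sets its mean was 5.60, against 5.57 to 5.61 on the other arrays. The arrays of NDF replicate 2 and CAF replicate 2 were each the lowest for 6. The median SD among the 3 arrays of a group was 0.22 for NDF and 0.27 for CAF over the 22 probe sets, against 0.22 and 0.34 over all probe sets.

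Measures of array quality and of other cells were as follows. The array of CAF replicate 3 had a highest correlation of 0.932 with any other array, where each of the others reached 0.980 to 0.983. The log2 difference between 3′ and 5′ control probe sets of Gapdh ran from 0.98 to 1.50 in NDF and from 1.19 to 1.42 in CAF. The sort marker Pdgfra was at 12.46 ± 0.15 in NDF and 12.54 ± 0.11 in CAF (SD, n = 3). Markers of other cells were summarised by 1 probe set per gene. Over all 18193 genes, 0.258% were higher and 0.0165% lower in CAF past the threshold, and 4.88% and 3.95% at an unadjusted p under 0.05. The mean log2 level of 16 keratinocyte genes was 6.31 to 6.51 in NDF and 8.05 to 9.32 in CAF, with 4 genes higher past the threshold and 12 before adjustment. For 18 macrophage and dendritic cell genes it was 4.79 to 5.33 and 6.65 to 7.79 (3 and 12 genes), for 12 neutrophil genes 4.52 to 5.21 and 7.06 to 8.11 (1 and 8), and for 13 endothelial genes 5.40 to 5.66 and 6.61 to 7.57 (1 and 10). For 6 T cell genes it was 4.98 to 5.24 and 5.97 to 6.84 (0 and 4), and for 8 mast cell genes 4.22 to 4.63 and 4.43 to 6.25 (0 and 3), where the array means overlapped. Of 13 dermal fibroblast genes 0 passed, and before adjustment 1 was higher and 2 lower. The part of other cells in the heat shock values was not tested.

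**Figure D3:**
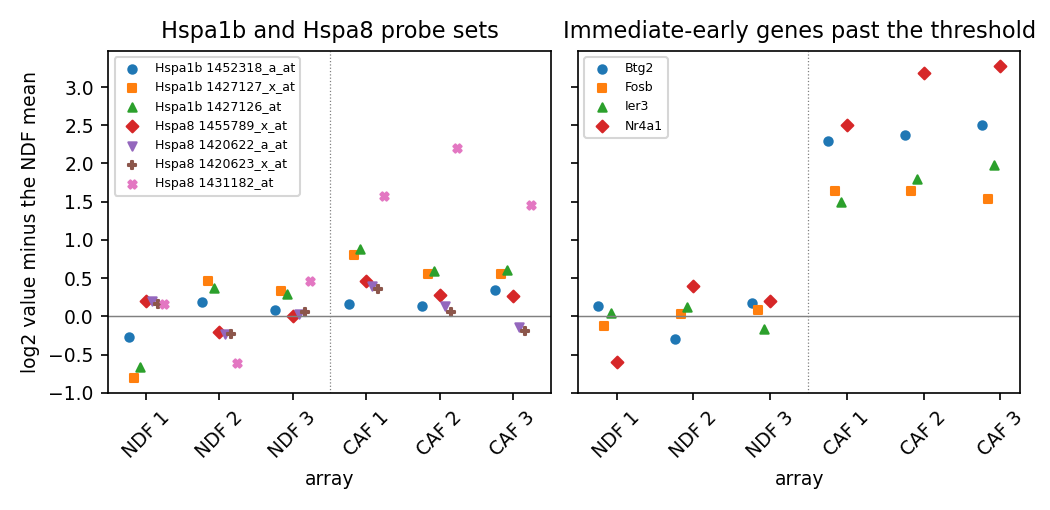
Log2 value minus the NDF mean (vertical axis) on each of the 6 arrays (horizontal axis) for the Hspa1b and Hspa8 probe sets (left) and for the 4 immediate-early genes past the threshold (right). NDF replicate 1 is low for Hspa1b, and of the probe sets on the left Hspa8 1431182_at alone has CAF values more than 1 log2 unit above the NDF mean.

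Other chaperone genes likewise held no gene past the threshold. Over 8 lists of relatives, co-chaperones, heat shock factors and chaperones of other compartments, 0 of 84 measured genes passed by limma. Before adjustment 3 reached p under 0.05 as higher and 1 as lower, where 4.88% and 3.95% of all genes did, so neither share exceeded the background. The median difference was 0.04, against -0.04 over the 18193 genes. Unless stated otherwise the genes below are given as values of the brightest probe set. With 1 array left out, the difference moved by over 1.5 times for 11 of the 16 genes named from these lists, none of them past the threshold. The share over all genes was not computed.

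Among 8 relatives of HSP70 and HSP110 the median difference was 0.09. Hspa4l, an HSP110 relative, was at 7.16 ± 0.58 in NDF and 7.95 ± 0.25 in CAF (SD, n = 3; limma adjusted p = 0.699), with a difference of 0.79, or 0.45 without NDF replicate 2. Hspa13, a microsomal HSP70, was at 10.18 ± 0.02 and 9.80 ± 0.19, with CAF below NDF on all arrays. Among 9 small heat shock proteins the median was -0.001. Hspb11, named as a small heat shock protein and known as a subunit of intraflagellar transport, was at 8.18 ± 0.27 and 6.66 ± 1.20. Its difference of -1.52 was -0.85 without CAF replicate 3. Hspb2 was at 5.37 ± 0.08 and 5.13 ± 0.26.

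Co-chaperones set the cycle of HSP70 and HSP90. Among 17 J-domain and other HSP70 co-chaperones the median was 0.02. The J-domain gene Dnaja1, also heat inducible, was at 9.62, 9.57 and 9.64 in NDF and at 10.26, 10.46 and 9.59 in CAF. CAF replicate 3 lay among the NDF arrays, and without it the difference was 0.75 (limma adjusted p = 0.206) in place of 0.49. The BAG-domain gene Bag5 was at 6.98 ± 0.28 and 6.50 ± 0.36. Among 8 HSP90 co-chaperones the median was 0.02. The myosin chaperone gene Unc45a was at 7.73 ± 0.29 and 8.35 ± 0.15 (limma adjusted p = 0.577), and the glucocorticoid-induced immunophilin gene Fkbp5 at 8.72 ± 0.13 and 8.32 ± 0.52. The difference of Fkbp5, -0.41, was -0.14 without CAF replicate 3 and -0.65 without CAF replicate 2.

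Heat shock factor genes and regulators other than Hsf1 had a median of -0.11 over 5 genes. Hsf2bp, which encodes a protein that binds heat shock factor 2, was at 5.02 ± 0.59 in NDF and 4.38 ± 0.18 in CAF. Hsbp1, which encodes a protein that binds heat shock factor 1, was at 10.25 ± 0.05 and 9.92 ± 0.43.

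Chaperones of mitochondria had the highest median of these lists, 0.24 over 8 genes. The mitochondrial HSP90 gene Trap1 was at 8.28 ± 0.11 in NDF and 8.75 ± 0.16 in CAF (limma adjusted p = 0.634), and the mitochondrial HSP70 gene Hspa9 at 10.85 ± 0.10 and 11.12 ± 0.10. In both the groups did not overlap. For the 8 subunits of the cytosolic chaperonin TRiC the median was 0.09, with Cct7 at 9.15 ± 0.27 and 9.65 ± 0.55 and Cct2 at 11.28 ± 0.05 and 11.45 ± 0.14. The difference of Cct7, 0.50, was 0.22 without CAF replicate 3 and 0.77 without CAF replicate 2. Of 21 genes of endoplasmic reticulum chaperones and the unfolded protein response, 0 passed at an adjusted or an unadjusted p under 0.05, where 4.88% of all genes were higher and 3.95% lower before adjustment, and the median was 0.01. The stress sensor gene Atf6 was at 8.68 ± 0.22 and 7.71 ± 0.98, where the difference of -0.97 was -0.43 without CAF replicate 3, and Sdf2l1, a target of that response, at 5.20 ± 0.06 and 5.59 ± 0.27.

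Immediate-early genes, which dissociation can also induce, had larger differences on the same arrays. Their list was chosen with earlier results of these data known, so its counts are a description only. Of 25 genes 4 rose and 0 fell by limma, where 0.258% of all genes rose. Before adjustment 17 reached p under 0.05 as higher, where 4.88% of all genes did. CAF lay above NDF on all arrays for 18, where this held for 6.78% of all genes. Their median difference was 1.18. Markers of other cells had medians of 1.62 (keratinocyte), 2.41 (macrophage and dendritic cell), 2.56 (neutrophil) and 1.53 (endothelial) on the same arrays. For T cell and mast cell markers the medians were 1.40 and 0.44. The part of other cells in the immediate-early values was not tested. The antiproliferative gene Btg2 rose from 7.19 ± 0.26 to 9.58 ± 0.10 (SD, n = 3; limma adjusted p = 0.0257). The AP-1 gene Fosb rose from 7.19 ± 0.11 to 8.79 ± 0.06 (limma adjusted p = 0.0387), and Ier3 from 10.27 ± 0.15 to 12.03 ± 0.24 (limma adjusted p = 0.0472). Also past the threshold was the nuclear receptor gene Nr4a1, with a difference of 2.99 ± 0.34 (SE; limma adjusted p = 0.0475). Calls at this threshold were lost with most arrays left out in turn, while the differences changed little. Btg2, Fosb and Ier3 missed it without any 1 NDF array, CAF replicate 1 or CAF replicate 2. With each array left out in turn their differences were 2.24 to 2.47, 1.54 to 1.65 and 1.65 to 1.89. Ier3 also missed the threshold without CAF replicate 3 (limma adjusted p = 0.0570). It missed again with quantile normalisation, cyclic loess, equal array medians or a robust prior, and Fosb missed with an intensity trend. Nr4a1 was not followed by itself under the alternatives. With quantile normalisation, cyclic loess or a robust prior the lists held 2 calls, those of Btg2 and Fosb, so Nr4a1 missed the threshold there. Some immediate-early genes had near equal groups, such as Jun at -0.12 and Jund at -0.01. Whether the heat shock and immediate-early genes differ from each other was not tested, since a score over chosen genes has no independent test here.

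**Figure D4:**
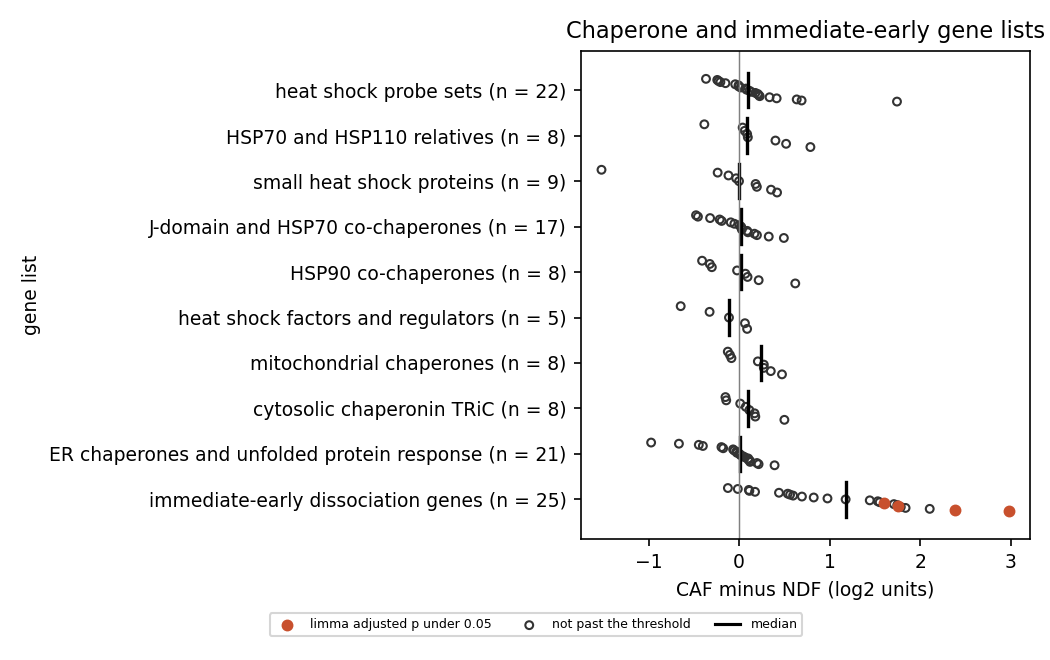
Difference between the group means (CAF minus NDF, log2 units, horizontal axis) for the 22 heat shock probe sets and for the genes of 9 other lists (vertical axis). Each point is 1 probe set or gene, black lines are medians, and filled points passed limma at an adjusted p under 0.05; all 4 filled points are immediate-early genes.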

How the data were processed

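Expression was measured on Affymetrix mouse genome arrays from RNA amplified once with the WT-Ovation kit, per the labels' protocols. The authors deposited log2 values made with GCOS and RMA, per the submitters' processing notes; their versions are not stated there. RMA equalises the arrays, so total intensity is lost and dim values are compressed. No scanner file or detection call was used. Of 45101 probe sets 64 controls were left out; of the other 45037, 34945 name 1 gene, 932 several and 9160 none. No sample column was left out.

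CAF and NDF were compared on every probe set with limma 3.58.1 (lmFit, eBayes, two-sided, group as the only term) in R 4.3.3, with Benjamini-Hochberg adjustment over all 45037 and a threshold of 0.05. The median standard error was 0.25, and the number of arrays limits the precision. List genes used the probe set with the highest mean. The rule named every heat shock probe set, genes of each list past the threshold (at most 3) or else the 2 with the smallest p, and Pdgfra; Nr4a1, Jun and Jund were chosen after their values were seen. Members and lists were chosen with earlier results of these data known. No list test was run. The alternatives were a replicate block, other normalisations, filters on dim probe sets, other choices of probe set, other variance models, a looser threshold and leaving out arrays. The procedure was tested on simulated data. Plots used matplotlib 3.10.9 (Python 3.11.15).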

Additional observations from a re-analysis of the deposited data

How the results depend on the processing

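Under all 20 alternatives 0 heat shock probe sets and 0 of the other chaperone genes passed the threshold, and the median difference of the heat shock probe sets stayed between -0.01 and 0.19. With 1 array left out, 20 of the 22 differences moved by over 1.5 times, all but those of Hspa8 1455789_x_at and 1431182_at. Many of these differences were near 0, where a small move in log2 units passes this factor. The share over all probe sets was not computed. Of 386 values of single probe sets 355 kept their sign and 31 changed it, in 10 probe sets whose main difference was at most 0.37 in size. The smallest adjusted p of any heat shock probe set was 0.0785, for Hspa8 1431182_at with array quality weights.

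The replicate numbers did not pair the arrays (correlations of -0.14, 0.14 and -0.04 between the deviations of same-numbered arrays). With a replicate block the count over all probe sets fell from 73 to 8 and that of the 9 lists from 4 to 0, with limma adjusted p of 0.130 for Btg2, 0.183 for Fosb and 0.187 for Ier3. The count over all probe sets was 24 with quantile normalisation again and 125 with the mean of the probe sets of a gene. It was 35 without probe sets that carry the suffixes _s, _x or _a. With an intensity trend it was 148, with array quality weights 446 and at an adjusted p under 0.1 it was 192. Without NDF replicate 1 and CAF replicate 3 together it was 22. It ran from 7 to 78 when 1 array was left out. The count over the lists, all of immediate-early genes, was 2 with quantile normalisation, cyclic loess, a robust prior or without those suffixes, 8 with the gene mean or a trend, 9 with array weights, 0 without both arrays, and 0 to 3 when 1 array was left out. Causes were not tested.

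Sign changes were as follows. With cyclic loess Hspa1a was at 0.011 and Hspb1 1425964_x_at at 0.079. With array weights Hspa1a was at 0.16, Hspb1 at 0.062 and 0.22, Hsp90aa1 1426645_at at 0.25, Hsph1 1423566_a_at at 0.094 and Dnajb1 1416756_at at -0.10. Without both arrays Hspb1 was at 0.00039 and 0.15, Hsp90aa1 1426645_at at 0.19 and Dnajb1 1416756_at at -0.23. Leaving out 1 array gave -0.21 to 0.19 for Hspa1a, -0.067 to 0.21 for Hspa8 1420623_x_at, -0.19 to 0.11 for Hspb1 1425964_x_at, -0.71 to 0.27 for Hsph1 1423566_a_at and -0.12 to 0.28 for Dnajb1 1416756_at. For Hsp90aa1 it gave -0.031 to 0.071 (1438902_a_at), -0.44 to 0.22 (1426645_at), -0.084 to 0.23 (1441827_x_at) and -0.17 to 0.16 (1433251_at). Dim probe sets and 3 arrays per group limit what could be called.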

Other observations

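The genes whose values followed Hspa1b most closely over the 6 arrays were Hspb8, Stard5, Bin1, Tbc1d10c and Sos2. Their Pearson correlations with probe set 1452318_a_at were 0.988, 0.984, 0.981, 0.980 and 0.979, the highest of 18192 genes compared, of which 22 were above 0.95. With 6 arrays and so many genes, high values arise without any relation, and the arrays share their normalisation. Hspb8 encodes a small heat shock protein and was at 10.53, 10.94 and 10.90 in NDF and at 10.96, 10.89 and 11.07 in CAF. As for Hspa1b, NDF replicate 1 was its lowest array and CAF replicate 3 its highest. The difference between the groups was 0.18 ± 0.19 (SE, n = 3 per group).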
